A study of Mus musculus with 12 samples.

Results

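Metallothioneins are small cysteine-rich proteins that bind zinc, copper and cadmium, and 4 genes around them were followed in AML12 cells: Mt1 and Mt2, the metallothioneins of liver, Mtf1, the zinc-sensing transcription factor that drives them, and Slc30a1, a zinc exporter of the plasma membrane. They were taken by gene symbol from a table of 19037 genes. Mt1 and Mt2 were selected on their read counts in these libraries, which rose more than additively when both treatments were given, so their values over the groups are a description and carry no p-value. Mtf1 and Slc30a1 were added for their roles, and their tests are given.

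AML12 is a mouse hepatocyte line established from an animal transgenic for human TGF-alpha. Each of 4 groups had 3 libraries of total RNA: cells given FK228 and overexpressing class I histone deacetylases (HDACs) with YF mutations, cells given FK228 alone, cells with the YF mutants alone, and control cells. FK228 (romidepsin) inhibits class I HDACs, and the sample titles call it HDI. A code with GFP in it, left unexplained, stands in the descriptions of the FK228 libraries and the control libraries. Dose, time and the identity of the mutated HDACs are likewise not stated in the labels used. Separate cultures are not mentioned either, and p-values then cover no more than the spread from library to library, possibly a technical one.

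In mammals, free zinc in the cytosol is bound by metallothioneins, pumped out or into vesicles by SLC30 transporters and brought in by SLC39 transporters. When zinc rises, MTF1 enters the nucleus and binds metal response elements in the promoters of the metallothionein genes and of Slc30a1. Liver metallothioneins are also known to rise with glucocorticoids, with interleukin-6 in the acute phase response and with oxidative stress.

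Mt1 and Mt2 lie next to each other on chromosome 8. In the RefSeq promoter table of GRCm38.p6, Mt2 starts at 94172618 and Mt1 at 94179089, both on the plus strand and 6471 bases apart. The RefSeq gene record of Mt1 runs from 94178883 to 94180327 and so opens 206 bases before that start, and that of Slc30a1 opens 84 bases before its own. Most of the window shown for Mt1 thus lies inside the annotated gene. Mtf1 lies on chromosome 4 (124802549 to 124849800) and Slc30a1 on chromosome 1 (191906697 to 191913248), with the RefSeq start of its promoter window at 191906781. The 250 bases before the promoter-table start are shown for Mt1, Mt2 and Slc30a1, since these 3 genes are known MTF1 targets that differed in response. Capitals mark the core of the metal response element, TGCACNC or TGCGCNC on either strand.
Mt1 (chr8:94178839-94179088, plus strand): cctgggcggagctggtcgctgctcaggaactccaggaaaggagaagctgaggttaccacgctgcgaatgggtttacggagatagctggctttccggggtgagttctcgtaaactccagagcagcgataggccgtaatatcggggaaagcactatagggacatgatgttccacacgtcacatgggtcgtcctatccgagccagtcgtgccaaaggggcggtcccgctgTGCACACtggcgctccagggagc
Mt2 (chr8:94172368-94172617, plus strand): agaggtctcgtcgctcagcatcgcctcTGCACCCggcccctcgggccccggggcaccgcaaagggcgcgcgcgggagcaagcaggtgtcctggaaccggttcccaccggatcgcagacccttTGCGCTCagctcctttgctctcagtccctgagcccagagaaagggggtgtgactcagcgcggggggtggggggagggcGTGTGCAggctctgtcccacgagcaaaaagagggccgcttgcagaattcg
Slc30a1 (chr1:191906531-191906780, plus strand): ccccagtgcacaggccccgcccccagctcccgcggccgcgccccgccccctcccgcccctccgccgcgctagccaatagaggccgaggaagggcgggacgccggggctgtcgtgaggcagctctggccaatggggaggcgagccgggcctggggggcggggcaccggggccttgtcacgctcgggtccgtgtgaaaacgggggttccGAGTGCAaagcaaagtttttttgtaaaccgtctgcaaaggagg

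The search covered 300 bases, 250 before the start and 50 from it. Mt1 held 3 cores, 1 of them before the start (TGCACAC, 23 bases before it) and 2 just after it (TGCACTC and TGCGCTC). Mt2 held 4, of which 3 lay before the start, at 223, 128 and 50 bases. Slc30a1 held 2 and Mtf1 none. Of all 32851 RefSeq windows of that length, 12.6% held TGCACNC, 15.4% held TGCGCNC, 25.7% held at least 1 of either, 1.97% at least 3 and 0.517% at least 4. The antioxidant response element core TGACNNNGC stood 79 bases before the start of Mt2 and 82 before that of Slc30a1, overlapping no other match, and 12.4% of windows held it. GENCODE vM21 places further Mt1 starts up to 152 bases after the RefSeq start and the first Mt2 start 46 bases after it, so promoter sequence used by those transcripts is only partly in these windows. A match is a description of letters, not evidence of binding.

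Mt1 stood at 2166, 2209 and 2718 CPM (read counts divided by TMM-adjusted library size) in the FK228+YF libraries, 827, 683 and 598 with FK228, 383, 357 and 385 with YF and 291, 347 and 391 in control. The FK228+YF libraries lay above all others, FK228 lay above YF and control, and YF overlapped control. Against control the mean was 6.89-fold with FK228+YF, 2.05-fold with FK228 and 1.09-fold with YF. On the log2 scale of the fit these were 2.78 ± 0.13, 1.03 ± 0.13 and 0.13 ± 0.12 (SE).

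Mt2 gave 2065, 2067 and 2272 CPM with FK228+YF, 511, 428 and 348 with FK228, 226, 239 and 261 with YF and 103, 113 and 141 in control. None of the 4 groups overlapped another. Relative to control, Mt2 was 17.9-fold with FK228+YF, 3.6-fold with FK228 and 2.03-fold with YF, or 4.16 ± 0.15, 1.85 ± 0.14 and 1.02 ± 0.13 on the log2 scale. The spread within groups was widest with FK228, with an SD of 19.1% of the mean for Mt2 and 16.5% for Mt1.

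**Figure D1:**
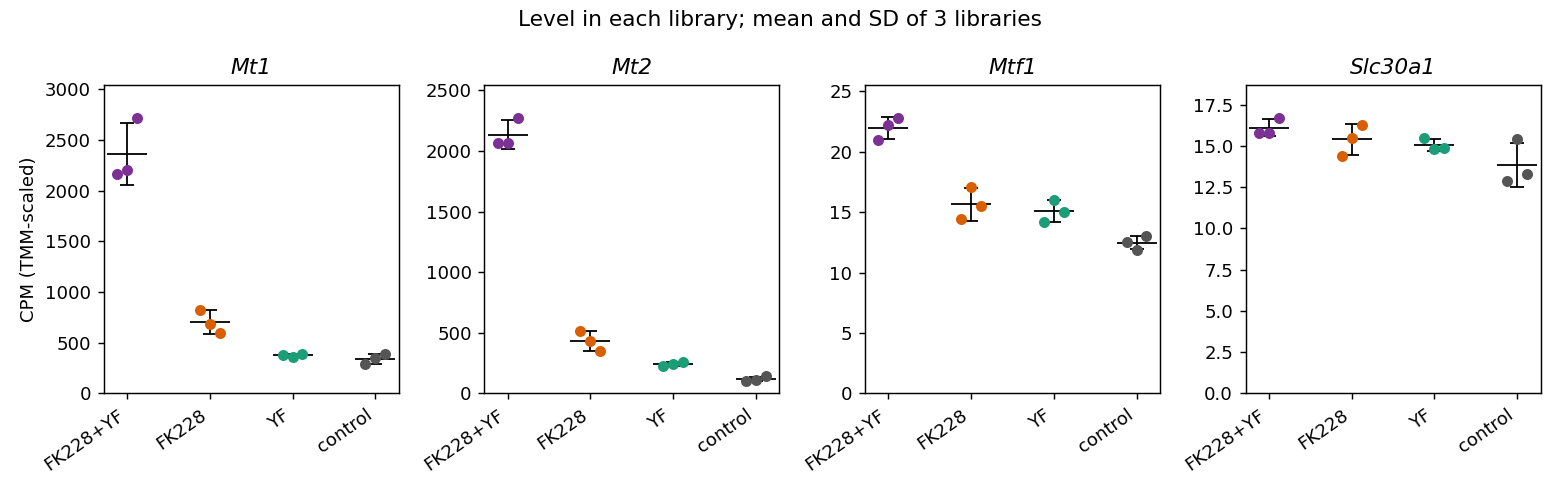
Level of Mt1, Mt2, Mtf1 and Slc30a1 in CPM on linear axes that start at 0, by group. Points are libraries, the horizontal bar is the mean and the error bar the SD of 3 libraries. Mt1 and Mt2 with FK228+YF stand far above the other groups, while Slc30a1 stays between 12.9 and 16.7 CPM.

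Adding the separate changes of FK228 and YF to the control level gives 735 CPM for Mt1, against the observed 2364 ± 307 CPM (SD, n = 3), a ratio of 3.22. For Mt2 the sum gives 552 CPM against the observed 2135 ± 119 CPM, a ratio of 3.87. Multiplying the separate folds gives 768 CPM for Mt1 and 870 CPM for Mt2, and the observed levels were 3.08 and 2.45 times these. The same departure on the log2 scale of the fit was 1.62 ± 0.18 for Mt1 and 1.29 ± 0.19 for Mt2 (SE). The rule that chose both genes used this departure, so it is described and not tested. With the counts of both genes added, since reads of close paralogs can be exchanged, FK228+YF gave 4499 ± 426 CPM, FK228 1132 ± 197, YF 617 ± 25.6 and control 462 ± 68.8. The sum was 3.5 times the additive and 2.98 times the multiplicative expectation.

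**Figure D2:**
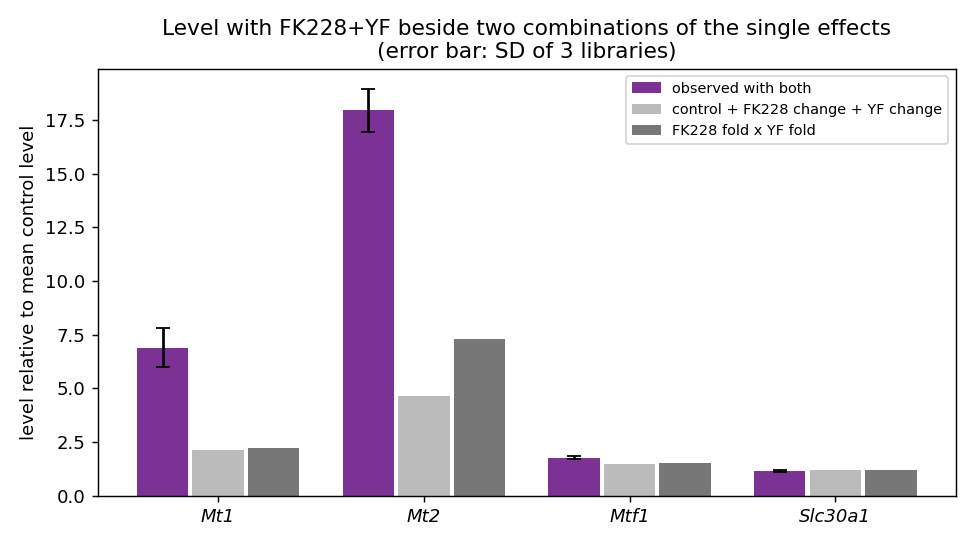
Level relative to the control mean on a linear axis: observed with FK228+YF (error bar, SD of 3 libraries), the control level plus the FK228 change and the YF change, and the FK228 fold times the YF fold. Mt1 and Mt2 exceed both combinations, at 6.89 and 17.9 times control, and Mtf1 and Slc30a1 lie close to them.

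Mt2 gained on Mt1 in every treated group. In TPM, which divides by transcript length, the ratio of Mt2 to Mt1 was 0.922, 0.904 and 0.807 with FK228+YF, 0.597, 0.606 and 0.562 with FK228, 0.569, 0.648 and 0.655 with YF, and 0.342, 0.315 and 0.349 in control. Control libraries lay lowest, FK228 and YF overlapped each other and FK228+YF lay highest. In deposited TPM, Mt1 averaged 7454 ± 1013 with FK228+YF, 2096 ± 177 with FK228, 1282 ± 75.9 with YF and 1108 ± 139 in control. Mt2 averaged 6501 ± 399, 1235 ± 138, 798 ± 51 and 372 ± 52.1 TPM in the same groups. By mean TPM, Mt1 ranked 14 of 19037 genes with FK228+YF and 147 in control, and Mt2 ranked 24 with FK228+YF and 364 in control. Together they made up 1.4% ± 0.141 of all TPM with FK228+YF, 0.333% ± 0.0312 with FK228, 0.208% ± 0.0099 with YF and 0.148% ± 0.0188 in control.

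**Figure D3:**
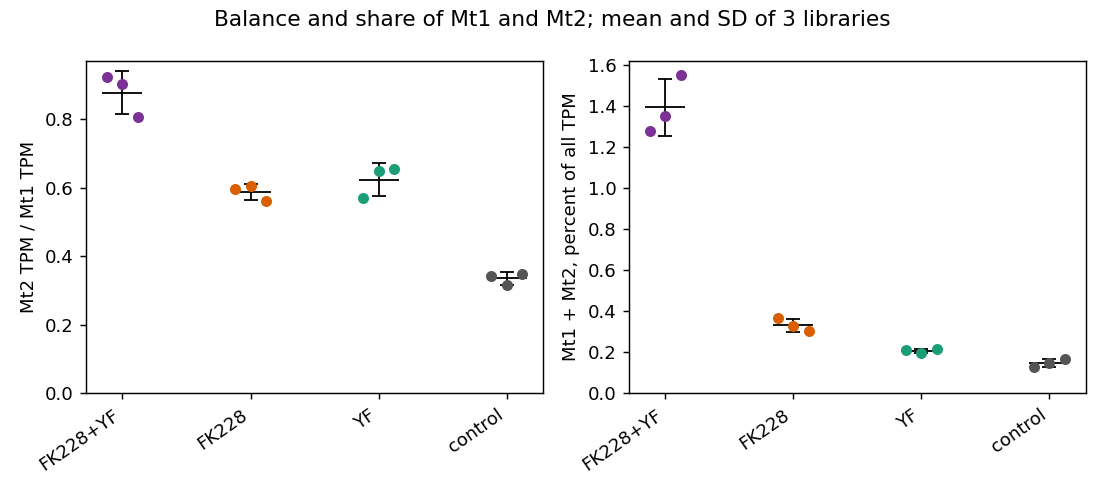
Left, TPM of Mt2 divided by TPM of Mt1; right, Mt1 and Mt2 together as a percent of all TPM, by group, on linear axes from 0. Points are libraries and bars the mean and SD of 3 libraries; the ratio is 0.878 with FK228+YF and 0.335 in control.

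Mtf1, the transcription factor, changed far less. It stood at 21, 22.2 and 22.8 CPM with FK228+YF, 14.4, 17.1 and 15.5 with FK228, 14.2, 16 and 15 with YF, and 12.5, 11.9 and 13 in control. FK228+YF lay highest and control lowest, with FK228 and YF overlapping between them. Mtf1 rose with FK228+YF against control (log2 fold change 0.82 ± 0.09, adjusted p = 2.65e-08, edgeR), a comparison in which 77.4% of 13346 tested genes were called. It rose with FK228 alone (0.33 ± 0.09, adjusted p = 0.00291, edgeR; 68.8% of genes called) and with YF alone (0.27 ± 0.09, adjusted p = 0.0239, edgeR; 32.6% called). The YF call ended without control replicate 2, YF replicate 2 or YF replicate 3, with log2 fold changes of 0.24, 0.23 and 0.28. FK228+YF was also above FK228 (0.49 ± 0.09, adjusted p = 6.98e-05, edgeR; 52.9% called) and above YF (0.55 ± 0.09, adjusted p = 8.9e-06, edgeR; 70.6% called). The FK228 effect with YF minus that without YF was 0.22 ± 0.12 and did not pass (adjusted p = 0.211, edgeR; 26.5% of genes called). In TPM, Mtf1 averaged 3.3 ± 0.186 with FK228+YF and 1.93 ± 0.0416 in control, and its RNA was thus far scarcer than that of Mt1 per transcript.

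Slc30a1, the exporter, hardly moved. Its libraries read 15.8, 15.8 and 16.7 CPM with FK228+YF, 14.4, 15.5 and 16.3 with FK228, 15.5, 14.8 and 14.9 with YF, and 12.9, 15.4 and 13.3 in control. The FK228 and YF libraries overlapped control. Its difference between FK228+YF and control was 0.22 ± 0.09 on the log2 scale and passed (adjusted p = 0.0336, edgeR). That call ended without control replicate 1 (0.16), control replicate 3 (0.18), FK228+YF replicate 2 (0.23) or FK228+YF replicate 3 (0.19), and without a count filter (0.19). FK228 alone gave 0.15 ± 0.09 (adjusted p = 0.136, edgeR), but 0.23 without control replicate 2, which then passed. YF alone gave 0.12 ± 0.09 (adjusted p = 0.336, edgeR). Its departure from multiplied effects was -0.06 ± 0.13 (adjusted p = 0.785, edgeR), and the observed level was 0.97 of the additive expectation. At 332 to 400 counts per library, changes of this size were not resolved between all groups.

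Mt3 and Mt4, the metallothioneins known from brain and from stratified epithelia, lie upstream of Mt2 on chromosome 8. Mt3 had 83, 51 and 57 counts with FK228+YF, 31, 40 and 23 with FK228, 10, 11 and 15 with YF, and 2, 0 and 3 in control. The groups did not overlap, and their order was that of Mt2. The ratio of summed counts to control was 41.2 with FK228+YF (95% exact interval 17.3 to 128), 19.2 with FK228 (7.93 to 60.4) and 7.44 with YF (2.91 to 24.3), intervals that cover counting error only. Mt3 passed the count filter only through its treated groups, so no p-value is given. These values rest on few control counts: the fitted log2 fold change with FK228+YF was 5.25 ± 0.47, against 4.69 without control replicate 2 and 5.92 without control replicate 3. With FK228 it was 4.21 ± 0.52 (3.65 and 4.88 without those libraries), and with YF 2.75 ± 0.62 (2.2 and 3.42). Its departure from multiplied effects was -1.71 ± 0.72 and ran from -2.38 to -1.16 with 1 library left out. Per 10000 counts of Mt1 and Mt2 there were 5.93 ± 1.95 of Mt3 with FK228+YF, 11.4 ± 2.79 with FK228, 7.46 ± 1.24 with YF and 1.39 ± 1.2 in control, and the part of misassigned reads in these was not tested. Mt4 had 1 count in each of 2 FK228+YF libraries and 0 elsewhere, and was not tested.

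Other genes of the same stretch of chromosome 8 did not share the size of the metallothionein changes. The annotation holds 19 genes that reach within 250 kb of Mt1, of which 12 were in the table and 7 were tested beside metallothioneins. With FK228+YF against control 3 of the 7 were higher and 3 lower (all genes, 38.8% higher and 38.6% lower), between -0.50 ± 0.06 for Herpud1, an endoplasmic reticulum stress gene, and 0.71 ± 0.10 for Ogfod1, a ribosomal prolyl hydroxylase. With FK228 4 were higher and 2 lower (all genes, 33.2% and 35.5%), and with YF 1 was higher and 1 lower (all genes, 18% and 14.6%). Nup93, a nucleoporin gene, gave 0.29 ± 0.07 with FK228+YF, -0.12 ± 0.07 with FK228 and 0.29 ± 0.07 with YF against control, and passed in the first and last of these.

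**Figure D4:**
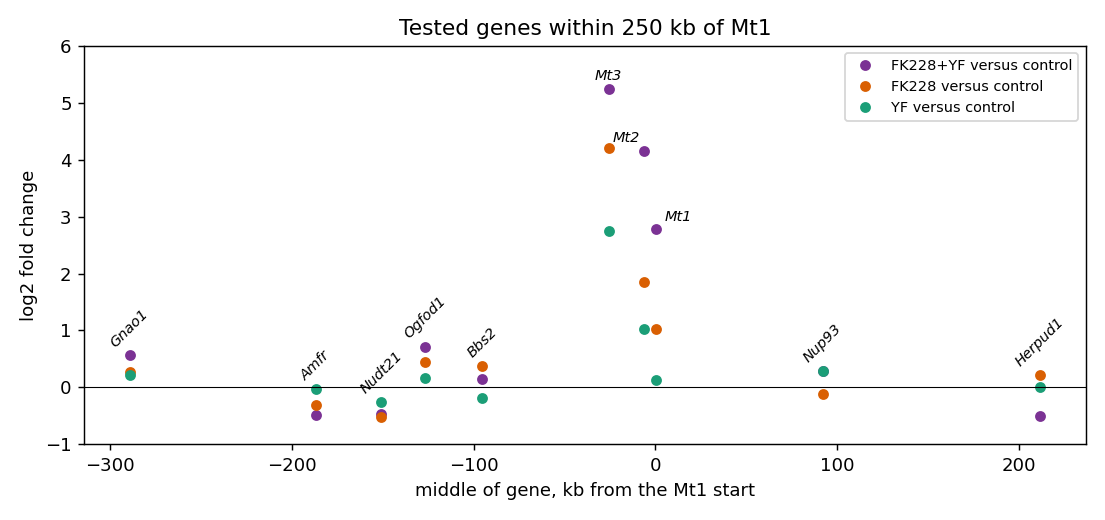
Log2 fold change against control (vertical, linear) of each tested gene that reaches within 250 kb of Mt1, by the distance of its middle from the Mt1 start in kb. The middle of Gnao1, a long gene, lies at -289.3 kb. Colours give FK228+YF, FK228 and YF; Mt1, Mt2 and Mt3 stand at up to 5.25 while the 7 others lie between -0.52 and 0.71.

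Zinc transporters moved in both directions. Of 10 SLC30 exporters 8 were in the table and 7 were tested. With FK228+YF against control 4 were higher and 2 lower (all genes, 38.8% higher and 38.6% lower), with a median log2 fold change of 0.22, where all tested genes had a median of 0.005. Slc30a6, a subunit of the zinc transporter of the early secretory pathway, had the largest rise, at 45.2 ± 0.403 CPM with FK228+YF, 35.6 ± 1.42 with FK228, 32.2 ± 0.848 with YF and 31.2 ± 1.96 in control (0.54 ± 0.06 for FK228+YF against control, adjusted p = 1.59e-07, edgeR). Slc30a9, a mitochondrial zinc exporter, gave 0.24 ± 0.06 with FK228+YF but -0.24 ± 0.06 with FK228 alone, and both passed. Slc30a7, a Golgi transporter, fell by 0.42 with FK228+YF (SE 0.10, adjusted p = 0.000672, edgeR). With FK228 alone 2 were higher and 3 lower (all genes, 33.2% and 35.5%), or 1 and 2 without control replicate 3. With YF, where 32.6% of all genes were called, none of 7 passed in edgeR or DESeq2, and 1 had an unadjusted p under 0.05; 1 passed without control replicate 3.

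All 14 SLC39 importers were in the table and 12 were tested. With FK228+YF against control 3 were higher and 4 lower (all genes, 38.8% higher and 38.6% lower), with a median of -0.11. With FK228 alone the counts were 4 and 5 (all genes, 33.2% and 35.5%), and with YF 4 and 3 (all genes, 18% and 14.6%). Set against FK228 alone, FK228+YF had 1 importer higher and 5 lower (all genes, 26.6% and 26.3%), and set against YF alone 3 higher and 7 lower (all genes, 34.7% and 35.9%). Slc39a2, with 5, 5 and 6 control counts and 7, 6 and 8 YF counts, passed the count filter only through the FK228-treated groups. It is counted as higher with FK228+YF and with FK228 against control, and with FK228+YF against YF. Its part in those counts is a description only. Slc39a1, a plasma membrane importer, fell with each, to 47.4 ± 2.57 CPM with FK228+YF, 72.3 ± 1.82 with FK228 and 90.1 ± 3.02 with YF, against 136 ± 24.1 in control. The log2 fold changes were -1.52 ± 0.10, -0.91 ± 0.09 and -0.59 ± 0.09 (adjusted p = 2.04e-10, 2.14e-07 and 0.000132, edgeR). Slc39a4, the intestinal zinc importer, fell by 1.02 with FK228+YF, by 0.52 with FK228 and by 0.42 with YF, and each passed. Slc39a6 rose with each, by 0.85 ± 0.08 with FK228+YF, 0.51 ± 0.08 with FK228 and 0.51 ± 0.08 with YF.

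Slc39a10, an importer that MTF1 is known to repress, fell with FK228 and somewhat further with FK228+YF. It had 24.1, 27.2 and 25.7 CPM with FK228+YF, 30.3, 30.3 and 32.9 with FK228, 56.2, 55.1 and 58.8 with YF, and 60.7, 55.6 and 53.3 in control. Both FK228-treated groups lay below the other groups, and YF overlapped control. Slc39a10 fell by 1.14 with FK228+YF (adjusted p = 2.7e-12, edgeR) and by 0.86 with FK228 (adjusted p = 4.38e-10, edgeR), and YF alone gave 0.00 ± 0.07 (adjusted p = 0.977, edgeR). Against FK228 alone, FK228+YF gave -0.28 ± 0.07 (adjusted p = 0.00251, edgeR), in a comparison where 52.9% of all genes were called.

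Slc39a14, the importer known to rise in liver with interleukin-6, had a different pattern. It stood at 29.1, 31.1 and 32.8 CPM with FK228+YF, 35.8, 36.9 and 37.9 with FK228, 35.5, 36.6 and 34.4 with YF and 29.8, 28.6 and 26.2 in control. Each single treatment raised it, by 0.38 ± 0.07 and 0.33 ± 0.07, while FK228+YF overlapped control (0.13 ± 0.07, adjusted p = 0.087, edgeR). That difference passed without control replicate 1 (0.17) or FK228+YF replicate 1 (0.18), with RLE scaling (0.15) and with a stricter count filter (0.18). Its FK228 effect was lower with YF than without by -0.58 ± 0.10 (adjusted p = 0.000187, edgeR). In that contrast 4 of 12 importers were called, all of them lower (all genes, 11.1% higher and 15.3% lower). The count was 2 without control replicate 3, FK228 replicate 3, YF replicate 1, YF replicate 3, FK228+YF replicate 1 or FK228+YF replicate 3.

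**Figure D5:**
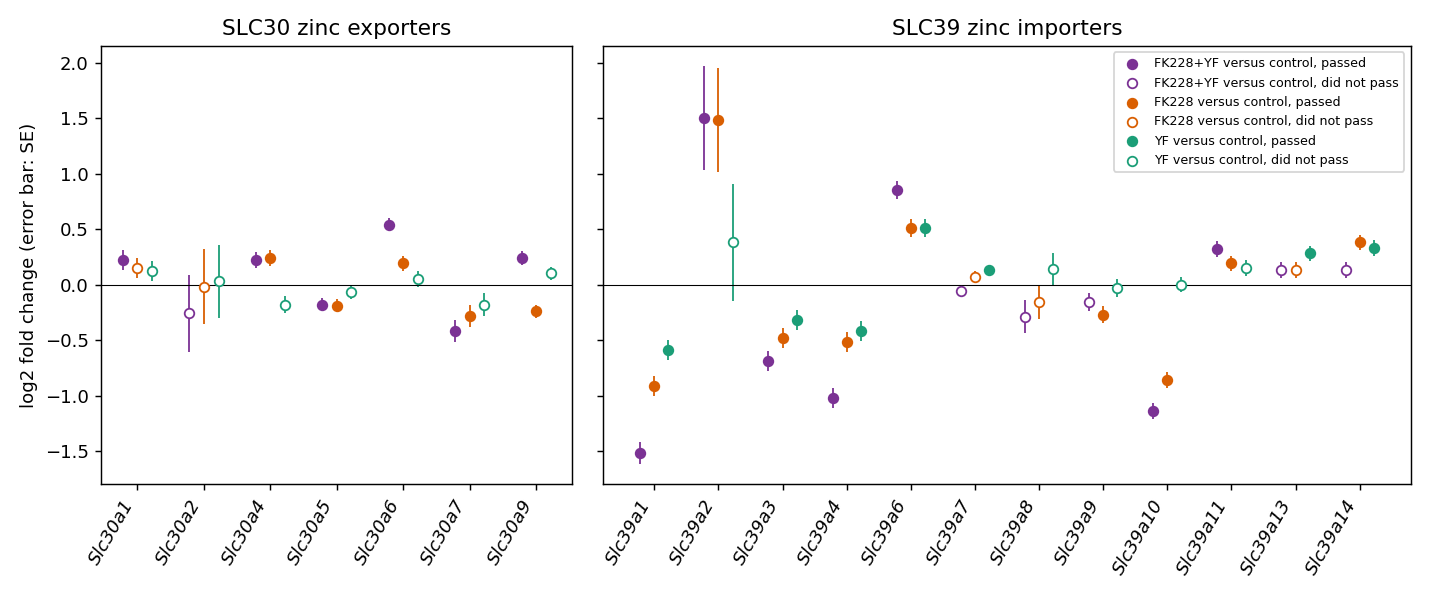
Log2 fold change against control with its SE for the 7 tested SLC30 exporters and 12 tested SLC39 importers; colours give FK228+YF, FK228 and YF, and filled points passed at an adjusted p of 0.05. Slc39a1 is the lowest with FK228+YF at -1.52, and Slc30a1 lies between 0.12 and 0.22. Slc39a2 passed the count filter only through the FK228-treated groups, so its points are a description only.

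Known MTF1 targets outside the metallothioneins included Slc39a10, which MTF1 is known to repress. Of 6 tested, 3 were higher and 1 lower with FK228+YF (all genes, 38.8% higher and 38.6% lower). FK228 alone had 2 higher and 1 lower (all genes, 33.2% and 35.5%), or 4 and 1 by DESeq2. YF alone had 1 higher and 1 lower (all genes, 18% and 14.6%), and the higher call ended without YF replicate 1 or YF replicate 3. In edgeR the lower gene was Slc39a10 with FK228+YF and with FK228, and Ndrg1 with YF (-1.20 ± 0.16). Csrp1, a LIM domain protein gene, had 196 ± 2.32 CPM with FK228+YF, 139 ± 1.03 with FK228, 129 ± 2.44 with YF and 115 ± 9.43 in control. Its FK228 effect was larger with YF by 0.32 ± 0.08 (adjusted p = 0.00594, edgeR), a departure in the same direction as that of Mt1 and Mt2. Gclc, which encodes the catalytic subunit of glutathione synthesis, had a departure of the opposite sign, -0.60 ± 0.10 (adjusted p = 0.000177, edgeR).

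Of 10 copper genes 4 were higher and 5 lower with FK228+YF (all genes, 38.8% higher and 38.6% lower), and 6 higher and 4 lower with FK228 (all genes, 33.2% and 35.5%). With YF, where 32.6% of all genes were called, none of 10 passed in edgeR or DESeq2, although 2 had an unadjusted p under 0.05 and 1 passed without control replicate 1, FK228 replicate 1, FK228+YF replicate 1 or FK228+YF replicate 3. Cp, the gene of the copper carrier ceruloplasmin, fell to 264 ± 15.3 CPM with FK228+YF and 457 ± 16.6 with FK228, against 873 ± 14.3 in control, and had 852 ± 36.4 with YF. The copper exporter gene Atp7b rose by 0.93 ± 0.14 with FK228+YF and by 0.49 ± 0.14 with FK228.

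Further lists held genes that respond to signals or stresses, among them known inducers of metallothioneins. Of 10 glucocorticoid responders, 8 were tested. With FK228+YF 5 were higher and 1 lower (all genes, 38.8% higher and 38.6% lower), with FK228 also 5 and 1 (all genes, 33.2% and 35.5%), and with YF 3 and 1 (all genes, 18% and 14.6%). The lower gene was each time Tsc22d3 (GILZ), at -1.27 ± 0.13, -0.66 ± 0.12 and -0.62 ± 0.12. Dusp1, a MAP kinase phosphatase that is also an immediate early gene, had 31.4, 30.5 and 32.2 CPM with FK228+YF, 11.1, 7.89 and 8.68 with FK228, 10.4, 9.8 and 9.94 with YF and 7.05, 4.59 and 7.08 in control. Its departure from multiplied effects was 1.08 ± 0.19 (adjusted p = 0.000336, edgeR).

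Of 13 interleukin-6 and acute phase genes 11 were tested. Against control, 8 were higher and 2 lower with FK228+YF (all genes, 38.8% higher and 38.6% lower), 8 and 2 with FK228 (all genes, 33.2% and 35.5%), and 10 higher and 0 lower with YF (all genes, 18% and 14.6%). The serum amyloid gene Saa3 had 1736 ± 75 CPM with FK228+YF, 755 ± 76.1 with FK228, 1125 ± 59.1 with YF and 258 ± 32.6 in control, and Osmr, the oncostatin M receptor gene, gave 2.09 ± 0.09, 1.39 ± 0.09 and 1.88 ± 0.09 on the log2 scale. In the difference between FK228 effects with and without YF, 9 of 11 were called and all 9 were lower (all genes, 11.1% higher and 15.3% lower), opposite in sign to Mt1 and Mt2, with -0.92 ± 0.12 for Saa3 and -1.18 ± 0.12 for Osmr (adjusted p = 1.29e-05 and 8.37e-07, edgeR). Saa1 and Saa2 are close paralogs, as are Orm1 and Orm2, and their counts are uncertain. Saa1, with 15, 7 and 16 control counts, passed the count filter only through its treated groups. It is counted as higher in each comparison with control and is among the 9 lower genes, and its part in those counts is a description only.

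Of 8 NRF2 targets 7 were tested: 5 were higher and 2 lower with FK228+YF (all genes, 38.8% higher and 38.6% lower), 5 and 1 with FK228 (all genes, 33.2% and 35.5%), and 4 and 1 with YF (all genes, 18% and 14.6%). Srxn1, which repairs peroxiredoxins, came nearest to the metallothioneins among them, with 269, 242 and 299 CPM with FK228+YF, 95.9, 95.9 and 109 with FK228, 63.1, 65.2 and 61.5 with YF and 52.1, 48.9 and 43.7 in control. Its departure from multiplied effects was 1.03 ± 0.11 (adjusted p = 1.36e-06, edgeR). That choice of gene was made after its values were seen. Against the same shares of all genes, 5 of 8 cytosolic heat shock genes were higher and 2 lower with FK228+YF, 5 and 3 with FK228 (3 and 2 without control replicate 3 or with a stricter count filter), and 3 higher with YF. Hsp90aa1 rose by 1.5 ± 0.07 with FK228+YF and 1.10 ± 0.07 with FK228, and Hspa1a and Hspa1b are near-identical copies whose reads may be split. Hspa1a, with 8.12, 10.66 and 5.71 control counts, passed the count filter only through its treated groups. It is counted as higher in each comparison with control, and its part in those counts is a description only.

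The genes most like Mt1 and Mt2 were ranked by Pearson's r of log2 CPM with the mean of Mt1 and Mt2 over the 12 libraries, which all of them share. Mt1 and Mt2 themselves gave r = 0.979. Get3, an ATPase that targets tail-anchored proteins to membranes, led with r = 0.996, followed by Wdr70 (0.993), the autophagy gene Wdr45 (0.991), the complex I subunit gene Ndufv1 (0.991), Nkiras2 (0.991), the depalmitoylase gene Abhd17a (0.99), Syap1 (0.99) and the mitochondrial ribosomal gene Mrpl28 (0.99). Their changes were smaller: with FK228+YF against control they lay between 0.83 for Get3 and 1.43 for Wdr70 on the log2 scale. Of 10448 genes ranked, 1072 had r of 0.9 or more, so a correlation of that size was common. Genes with r of 0.99 or more were not counted. Mtf1 ranked 424 with r = 0.947 and Slc30a1 ranked 3054 with r = 0.643.

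Totals lay between 23664446 and 26122998 counts per library. Of 6 hepatocyte markers, Alb was nearly absent, at 0.11 ± 0.045 CPM with FK228+YF, 0.0274 ± 0.0237 with FK228, 0.256 ± 0.0764 with YF and 0.0387 ± 0.000177 in control, and Hnf4a fell to 28.7 ± 1.24 CPM with FK228+YF against 177 ± 7.51 in control. The summed level of 6 hepatocyte markers was 1592 to 2007 CPM with FK228+YF, 2600 to 2945 with FK228, 2370 to 2504 with YF and 2808 to 3027 in control, mostly from keratin genes. The sum of 5 macrophage markers had the group order of Mt2, with 52 to 60.1, 23.7 to 29.7, 9.76 to 11.6 and 4.16 to 4.53 CPM in the same groups. Cd68, a lysosomal glycoprotein gene, made up most of it (49.8 ± 4.72 with FK228+YF, 2.53 ± 0.391 in control), while Adgre1 averaged at most 0.153 CPM in any group, Csf1r at most 1.09 and Ptprc at most 1.51. Lyz2, the lysozyme gene of myeloid cells, was low but higher in each treated group. It had 3.28 ± 0.341 CPM with FK228+YF, 1.97 ± 0.215 with FK228 and 2.36 ± 0.166 with YF, against 0.323 ± 0.0436 in control. Its control libraries held 9, 9 and 7 counts. Lyz2 passed the count filter only through its treated groups, so no p-value is given. Sums of 4 cholangiocyte markers in the table were 4303 to 5124, 5423 to 5814, 5356 to 5577 and 4870 to 4942 CPM in those groups, nearly all from Spp1. The other 3 were lower with FK228+YF than in control: Krt19 had 107 ± 6.4 against 607 ± 82.6 CPM, Krt7 33.9 ± 6.19 against 95 ± 7.44 and Sox9 11.9 ± 0.772 against 21.2 ± 3.04 (adjusted p = 6.8e-15, 1.37e-10 and 2.57e-06, edgeR). The 5 stellate markers summed to 99.3 to 117, 85.7 to 96.8, 112 to 127 and 78.9 to 94.2 CPM, and the 4 endothelial markers to at most 1.41 CPM in any library. The part of other cell types in the metallothionein levels was not tested. In RNA of whole cultures, more cells expressing a gene and more RNA per cell cannot be told apart.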

How the data were processed

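Total RNA of 12 AML12 libraries, 3 in each of 4 groups, was sequenced from both ends (BGISEQ), per the labels' protocols. The authors deposited expected counts per gene, which were not scaled to library size as the totals show, and TPM, which the authors scaled by transcript length and to a fixed total. Of the deposited counts, 16.6% are not whole. RSEM 1.2.12, Bowtie2 2.2.5, HISAT2 2.0.4 and DESeq2 1.4.5 appear in the submitters' processing notes, beside the build GRCm38.p6, with no role or order. Use of strand is not stated there. The 40 other columns of sample values were not used.

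Counts were rounded, filtered with filterByExpr (13346 genes left), scaled by TMM and fitted with edgeR 4.0.16 (limma 3.58.1, R 4.3.3), quasi-likelihood with robust dispersions, 1 term per group over 12 libraries. A gene was called when its p, adjusted by Benjamini-Hochberg over all genes tested, was below 0.05. The 6 contrasts were FK228+YF, FK228 and YF against control, FK228+YF against FK228 and against YF, and the FK228 effect with YF minus that without. The comparisons with control share the control libraries. Levels are CPM with TMM factors, mean ± SD of 3 libraries; log2 fold changes have the fitted SE.

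The members and the 14 gene lists (9 of pathways, 5 of cell type markers) were chosen with earlier results of these data known. Beside the members, up to 5 called genes per list and contrast with a mean CPM of 1 or more could be named, with the 8 genes most like Mt1 and Mt2 (mean CPM of 5 or more, prior count 2) and genes within 250 kb of Mt1. Every list gene called for the difference between FK228 effects is also given, as are Lyz2, Krt19, Krt7 and Sox9, choices made after the values were seen. Of 19037 genes, 18980 matched RefSeq by gene ID. Promoters are RefSeq's (GRCm38.p6). Protein sequences were not used here.

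Alternatives were RLE scaling, no count filter, 5 CPM in 3 libraries, DESeq2 1.42.0, the compared groups alone, the replicate number as a factor, each library left out, deposited TPM, and Mt1 and Mt2 added. The fit was tested on simulated data, with the same dispersion for all genes and far fewer changed genes than were called here. It called 90.5% of true FK228 changes of 0.5 on the log2 scale. Of true differences between FK228 effects of that size it called 51.7%, so smaller departures that did not pass may have been missed. Replicates differed by more than sampling noise, with a chi-square per gene of 3.65 to 22.6.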

Additional observations from a re-analysis of the deposited data

Results flagged for a closer look

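For 36 genes of the lists and the neighbourhood of Mt1, metallothioneins aside, the FK228 effect in cells with YF differed from that without, by the test of that difference (edgeR, adjusted p below 0.05; 26.5% of all genes). Tested were 7 SLC30 and 12 SLC39 genes, 6 MTF1 targets, 10 copper genes and 8 glucocorticoid responders. Also tested were 11 acute phase genes, 7 NRF2 targets, 8 heat shock genes and 7 neighbours. Markers tested were 5 of hepatocytes, 4 of cholangiocytes, 4 of macrophages and 2 of stellate cells. Some genes stand on more than 1 list. Values are log2, effect with YF minus effect without. They were positive for the zinc exporters Slc30a9 (0.38) and Slc30a6 (0.30) and negative for the zinc importers Slc39a14 (-0.58), Slc39a10 (-0.28), Slc39a13 (-0.28) and Slc39a7 (-0.26). Known MTF1 targets gave Ndrg1 (1.02), Csrp1 (0.32) and Gclc (-0.60), and copper genes gave Atox1 (0.44) and Cp (-0.75). Glucocorticoid responders gave Dusp1 (1.08) and Errfi1 (0.45). The 9 acute phase genes called were negative, with Saa2 (-2.53), Saa1 (-2.38), Orm2 (-2.22), Orm1 (-1.66), Osmr (-1.18), Saa3 (-0.92), Lcn2 (-0.81), Socs3 (-0.42) and Stat3 (-0.31). NRF2 targets gave Srxn1 (1.03) and Osgin1 (-0.52), and heat shock genes Hspb1 (-0.59) and Bag3 (-0.40). On chromosome 8, the 3' end processing factor gene Nudt21 (0.32) and Herpud1 (-0.72) differed. Of the cell type markers 8 differed, with Krt8 (-0.47), Krt18 (-0.39) and Hnf4a (-0.27) of hepatocytes, Krt7 (-0.62), Spp1 (-0.49) and Krt19 (0.40) of cholangiocytes, Lyz2 (-2.13) of macrophages and Des (-0.52) of stellate cells. Lyz2, with 9, 9 and 7 control counts, passed the count filter only through its treated groups. Saa1 had 15, 7 and 16 control counts and likewise passed through its treated groups. The values of Lyz2 and Saa1, both counted among the 36, are thus a description only.

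Several of these calls were fragile. Atox1 had an adjusted p of 0.0497 (edgeR), and its call ended in 10 of the 12 fits that left out 1 library, with values from 0.35 to 0.60 over all 12. The call of Slc39a13 also ended in 10 of them (-0.35 to -0.20), and those of Slc39a10 (-0.34 to -0.24) and Des (-0.65 to -0.38) in 7 each. Fewer leave-outs ended the calls of Krt19 (6, with 0.33 to 0.50), Hnf4a (5, with -0.33 to -0.23), Slc30a6 (3, with 0.25 to 0.34) and Krt18 (2, with -0.50 to -0.31).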

How the results depend on the processing

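No alternative turned the sign of a value that was called. Mt1 and Mt2 kept their direction in all 6 contrasts without any 1 library, with ranges of 2.67 to 2.88 and 4.06 to 4.30 for FK228+YF against control and 0.02 to 0.23 for Mt1 with YF. With the counts of both genes added, the Mt1 log2 fold change and the Mt2 log2 fold change became 3.28 (FK228+YF against control), 1.29 (FK228), 0.42 (YF), 1.99 (FK228+YF against FK228), 2.87 (Mt2 log2 fold change, FK228+YF versus YF, and likewise for Mt1) and 1.58 (departure), because the sum weights Mt1 and Mt2 by their counts. Deposited TPM gave 3.03 for Mt2 in FK228+YF against YF. Mtf1 with YF ranged from 0.23 to 0.31 and Slc30a1 from 0.16 to 0.29 (FK228+YF) and 0.10 to 0.23 (FK228) without 1 library each, and calls changed as given above; Slc30a1 was 0.19 without a count filter, adjusted p = 0.0897 (edgeR). Called SLC30 exporters ranged from 3 to 5 with FK228, 0 to 1 with YF, 2 to 4 in FK228+YF against YF and 1 to 2 in the departure, which was 1 without a count filter. Called SLC39 importers in the departure ranged from 2 to 4. Libraries with the same replicate number did not deviate together (r from -0.215 to 0.089 over 18 pairs, against -0.126 to 0.195 over 36 pairs with different numbers). With 3 libraries per group, this cannot show that the numbers pair nothing. With the replicate number as a block the departure called 2 of 12 SLC39 importers. Slc30a1 had 332 to 400 counts per library, and at that depth leaving out 1 library could end or make a call.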
